A study of Mus musculus with 6 samples.

Results

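Sorted fractions of mouse spleen were compared, cells with little Ly6C and much F4/80 (Ly6cloF4/80hi, called the F4/80hi gate here) and cells with much Ly6C and little F4/80 (Ly6chiF4/80lo, called the Ly6chi gate here). They are 4 of the 6 libraries of the study, 1 for each gate in normal mice and 1 for each gate in mice with T cell acute lymphoblastic leukemia (T-ALL), and were taken by the gate named in the labels. The other 2 libraries hold cells low in both antigens, Ly6cloF4/80lo, called the double-low gate here. Among 16058 genes listed in any library, 9297 reached 5 FPKM (fragments scaled to transcript length and to library size) in at least 1 of the 4 libraries, and these genes are described here. At the edge of that limit, Kcnj8, Ddx19b and Nkx2-1 had a highest value of 5.0 FPKM and entered, and Luzp1, Msi2 and Carmil2 had a highest value of 4.99 FPKM and did not.

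All mice were C57BL/6, aged 6 to 8 weeks. Normal spleens were taken at day 0. T-ALL spleens were taken at day 15, after a transplant of 1000000 GFP+ leukemia cells per mouse from leukemic donors into recipients that were not irradiated, and such mice lived 35 to 40 days. The labels call each sorted fraction macrophages. They do not say whether mice were pooled or whether the 3 fractions of a state share their mice. No gate was repeated within a state, so no spread among repeat sorts was measured. The p-values rest instead, in part, on a prior spread drawn from all tested genes. Each gene's own part is how far the differences among the 3 gates disagree between normal and T-ALL mice. In that disagreement, a state effect that differs between gates cannot be told apart from noise, which may be technical.

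In the spleen, F4/80 high cells are known as red pulp macrophages, which engulf ageing red blood cells, break down their heme and return the iron to the blood through the exporter ferroportin. Their identity depends on the transcription factor SpiC, which heme induces. Ly6C high cells are known as classical monocytes, which leave the bone marrow through the receptor CCR2, enter inflamed tissue and can turn into macrophages or into Ly6C low patrolling monocytes that depend on the factor Nr4a1.

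Each gene was tested for a difference between the gates with limma on log2(FPKM + 1), with the state (normal or T-ALL) as a block and all 6 libraries in the fit. Log2 differences are F4/80hi minus Ly6chi on that scale, given with the standard error (SE) of the fit, and they understate the change of genes with low FPKM. A gene was called higher or lower where the p-value adjusted over 11616 tested genes was under 0.05. The normal pair and the T-ALL pair are the 2 libraries of 1 state, and a pair alone has no replicate and no test. Depth read from the spacing of low FPKM values was 6770000 to 8900000 fragments per library, which gives a transcript of 2 kb at 10 FPKM a counting error of 7.61% to 8.73% and at 1 FPKM one of 24.1% to 27.6%. In bulk RNA, fewer cells of a type and less RNA per cell cannot be told apart.

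The sort antigens were distributed as the gates are named, a direction that follows from the sorting and is no separate result. Adgre1, which encodes F4/80, was at 86.6 FPKM (normal) and 47.3 FPKM (T-ALL) in the Ly6chi gate and at 529 and 234 FPKM in the F4/80hi gate, a log2 difference of 2.44 (SE 0.26, adjusted p = 0.00377). Ly6c2, which encodes Ly6C, was at 482 and 1405 FPKM in the Ly6chi gate and at 11.8 and 19.8 FPKM in the F4/80hi gate, a log2 difference of -5.66 (SE 0.33, adjusted p = 0.000575). The groups did not overlap for either gene. Among the 9297 genes, 2399 had both F4/80hi values above both Ly6chi values and 1600 had both below. Any lack of overlap given below is to be read beside these counts. Ly6c1, a neighbour of nearly identical sequence whose reads may be split with Ly6c2, was at 4.85 and 8.58 FPKM against 0.75 and 1.04 FPKM.

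Both gates also carried RNA of cells that the labels do not name. In the Ly6chi gate the summed level of 15 neutrophil genes was 13758 FPKM in normal and 45990 FPKM in T-ALL mice (2.68% and 7.88% of all FPKM), against 379 and 236 FPKM in the F4/80hi gate, and Ly6g, the defining surface antigen of neutrophils, was at 19.2 and 53.9 FPKM against 0.15 and 0.26 FPKM. The 8 plasma cell genes summed to 6212 and 15840 FPKM in the Ly6chi gate and to 523 and 1828 FPKM in the F4/80hi gate. The 18 erythroid genes summed to 912 and 951 FPKM in the Ly6chi gate and to 5279 and 41482 FPKM in the F4/80hi gate, which was 7.21% of all FPKM in the T-ALL F4/80hi library. No gene of these 3 lists was at 0 in any of the 4 libraries. The part of these cells in the gene differences described next was not tested.

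Of the 11616 tested genes 825 (7.10%) were called higher and 660 (5.68%) lower in the F4/80hi gate. The counts of every gene list given below are to be read beside these shares. All 1485 called genes went one way in both pairs. The fit favours such genes, since its error grows where the pairs disagree, so this is no separate sign of repeatability. Of the called genes 660 of the higher and 549 of the lower differed by at least 2-fold. Differences of 16-fold or more were found for 26 higher and 29 lower genes. Over all tested genes the median log2 difference was 0.12 and the median absolute difference 0.32. The split between directions depends on scaling: 55.56% of the calls were higher with FPKM as deposited and 42.62% after quantile normalization, which moved the median of all genes to 0.00. Without the state block 100 genes were called higher and 97 lower, and every count above 0 of the gene lists described here was smaller, except 1 antibody receptor gene that fell and 1 platelet gene that rose. No gene changed from one called direction to the other under any alternative that was run.

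Counted by pair without a test, 810 of 9297 genes (8.71%) were at least 2-fold higher and 666 (7.16%) at least 2-fold lower in normal F4/80hi cells. In T-ALL these counts were 867 (9.33%) and 592 (6.37%). Both pairs showed the 2-fold difference the same way for 487 higher genes (5.24%) and 371 lower genes (3.99%), and 8 genes, 4 each way, went opposite ways by 2-fold or more. The plot of the 2 pairs shows this as a cloud along the diagonal.

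**Figure D1:**
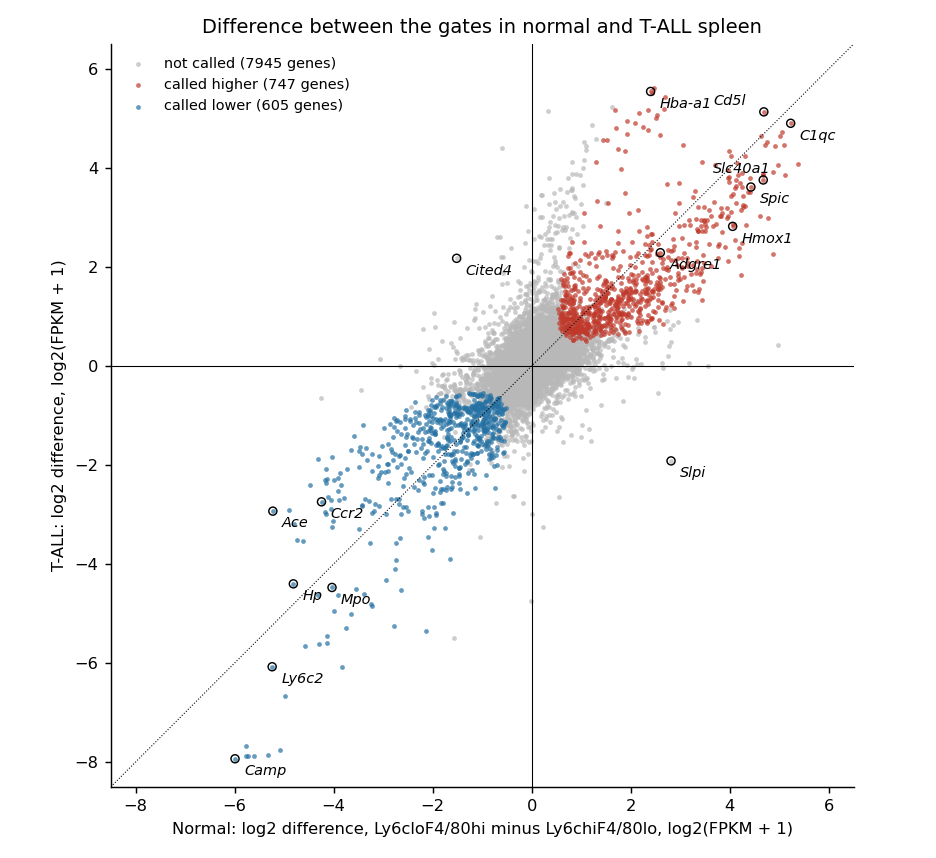
Log2 difference between the F4/80hi and the Ly6chi gate in the normal pair (horizontal axis) and in the T-ALL pair (vertical axis), 1 point per gene for 9297 genes. Of these genes 747 were called higher and 605 lower by the fit. All of them lie in the quadrants where both pairs have the same sign, which the fit favours, since its error grows where the pairs disagree.

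The 12 largest increases included the 3 chains of C1q and several receptors of tissue macrophages. C1qc, a chain of the complement recognition protein C1q, was at 66.7 FPKM in normal and 42.8 FPKM in T-ALL Ly6chi cells and at 2539 and 1306 FPKM in F4/80hi cells (log2 difference 5.06, SE 0.26, adjusted p = 0.000535). Its partners C1qa (log2 difference 4.83) and C1qb (4.59) rose with it and stood at 1156 to 2603 FPKM in the F4/80hi gate. Cd5l, a secreted scavenger protein of tissue macrophages, was at 18.8 and 14.7 FPKM against 509 and 547 FPKM (log2 difference 4.91, SE 0.23, adjusted p = 0.00046). It is the one gene among these 12 that was no lower in T-ALL than in normal F4/80hi cells.

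Surface molecules made up much of the rest. Vcam1, an adhesion molecule that binds integrin α4β1, was at 60.6 and 25.6 FPKM against 2046 and 701 FPKM (log2 difference 4.89, SE 0.20, adjusted p = 0.000404). Mertk, a receptor for dying cells, was at 3.84 and 1.81 FPKM against 164 and 60.8 FPKM (log2 difference 4.78). Itgad, the integrin αD chain of red pulp macrophages, was at 12.6 and 4.71 FPKM against 409 and 123 FPKM (log2 difference 4.68). For each of the 3 the lowest F4/80hi value was above the highest Ly6chi value, which held for 2399 of the 9297 genes.

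The other leading increases were 5. Slc45a3, a membrane transporter, was at 2.67 and 1.33 FPKM against 152 and 38.1 FPKM, and the terminal complement component C6 at 5.97 and 2.1 FPKM against 187 and 70.0 FPKM. Fcna, a ficolin that recognises sugars on microbes, was at 60.5 and 20.1 FPKM against 1510 and 526 FPKM. The others were Ccr3, the eotaxin receptor (7.39 and 2.47 FPKM against 264 and 57.1 FPKM) and Sema6d, a transmembrane semaphorin (1.8 and 1.02 FPKM against 96.2 and 28.3 FPKM). Their log2 differences ran from 4.49 for Sema6d to 4.72 for Slc45a3, with adjusted p from 0.000404 to 0.00382. In the double-low gate all 5 were below the F4/80hi values, at 88.7 and 22.1 FPKM for Fcna and at no more than 9.13 FPKM for the rest, and Slc45a3 in T-ALL (5.44 FPKM) was above its Ly6chi value.

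The 12 largest decreases were led by secretory granule proteins. Camp, an antimicrobial cathelicidin, was at 1339 and 3714 FPKM in the Ly6chi gate and at 20.1 and 14.2 FPKM in the F4/80hi gate (log2 difference -6.96, SE 0.69, adjusted p = 0.0035). Ltf, the iron binding protein lactoferrin, was at 672 and 1486 FPKM against 11.4 and 5.31 FPKM (log2 difference -6.82), and Ngp, neutrophilic granule protein, at 2436 and 6045 FPKM against 44.7 and 24.6 FPKM (log2 difference -6.81). S100a8 and S100a9, the calcium binding pair calprotectin, reached 21584 and 10296 FPKM in T-ALL Ly6chi cells, 5836 and 2653 FPKM in normal Ly6chi cells, and 46.3 to 144 FPKM in the F4/80hi gate. These genes belong to the neutrophil list whose summed level is given above, and the part of neutrophils in their decrease was not tested.

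Lcn2, a siderophore binding protein, had a log2 difference of -6.74, Cd177, a neutrophil surface protein, one of -5.82, Chil1, a chitinase-like lectin, one of -5.12, Fcnb, a ficolin of granulocytes and monocytes, one of -4.96, and Wfdc21, a small secreted protein, one of -4.96. Chil3, a chitinase-like lectin of monocytes and neutrophils that has close paralogs among which reads may be split, was at 630 and 1332 FPKM against 10.5 and 5.54 FPKM (log2 difference -6.72, SE 0.50, adjusted p = 0.00135). For each of the 12, Ly6c2 included, the Ly6chi value was higher in the T-ALL library than in the normal one. Without the normal F4/80hi library, adjusted p was 0.0617 for Camp, 0.0704 for Lcn2, 0.0635 for Ngp, 0.0875 for S100a8, 0.0985 for S100a9, 0.0551 for Fcnb and 0.0777 for Wfdc21, and it stayed at 0.0441 for Ltf, 0.0336 for Cd177, 0.0285 for Chil3 and 0.0108 for Ly6c2.

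**Figure D2:**
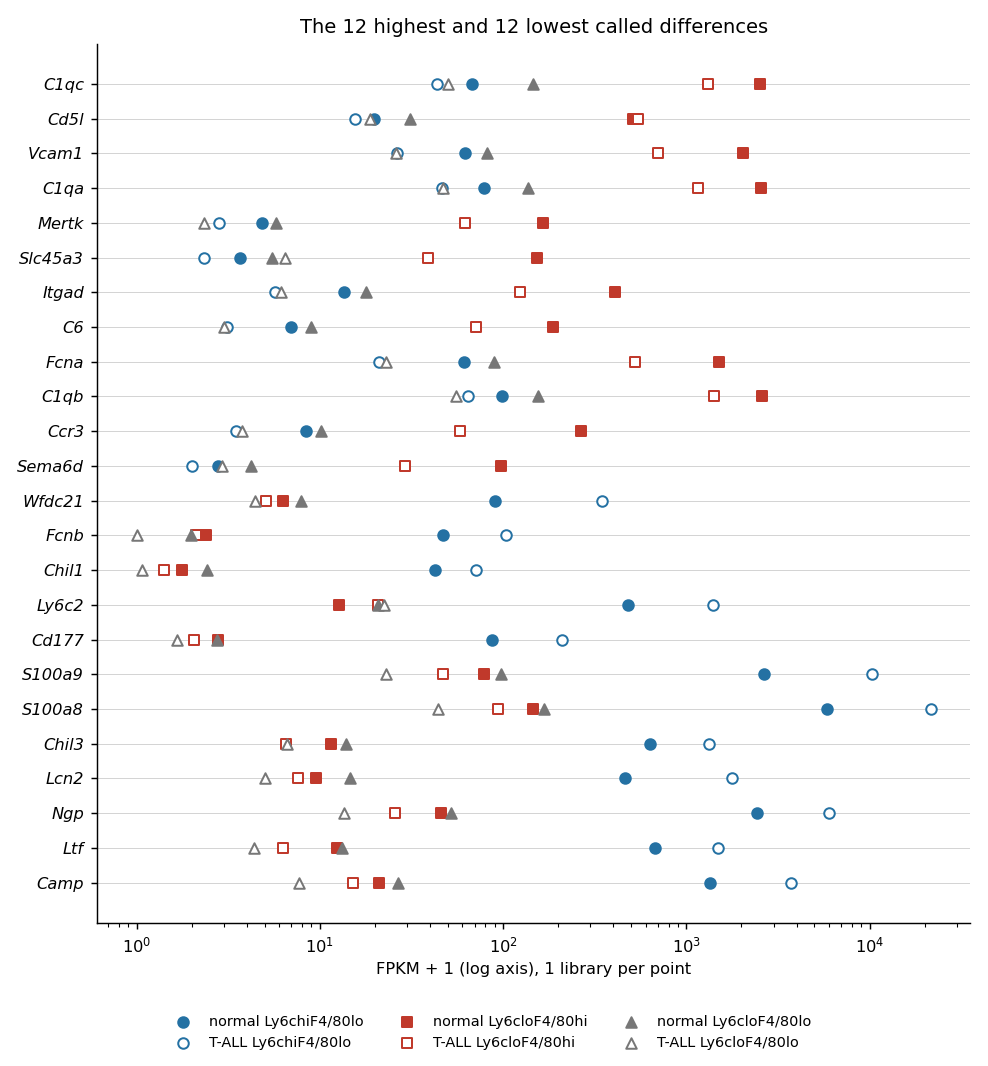
FPKM + 1 on a log axis of the 12 genes with the largest increase and the 12 with the largest decrease in the F4/80hi gate, 1 point per library for all 6 libraries. The double-low libraries lie closer to the Ly6chi gate for the increases and closer to the F4/80hi gate for the decreases.

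Promoters of 4 leading genes that hold a match of a searched motif are printed, and they do not stand for the other leading genes. RefSeq promoter windows on the build GRCm38.p6 were at hand for 9 of the 12 leading increases and 11 of the 12 leading decreases. The printed stretch is the 250 bases before the annotated start, and capitals mark matches of a motif searched on both strands. For C1qc (chr4:136892915-136893164, minus strand) and Ly6c2 (chr15:75111972-75112221, minus strand) the motif is the PU.1 type ETS site GAGGAAGT. For Ngp (chr9:110419558-110419807, plus strand) and Ltf (chr9:111019042-111019291, plus strand) it is TTNNGCAA, a form of the C/EBP palindrome TTGCGCAA with free bases (N). The free form is not itself a palindrome.
C1qc: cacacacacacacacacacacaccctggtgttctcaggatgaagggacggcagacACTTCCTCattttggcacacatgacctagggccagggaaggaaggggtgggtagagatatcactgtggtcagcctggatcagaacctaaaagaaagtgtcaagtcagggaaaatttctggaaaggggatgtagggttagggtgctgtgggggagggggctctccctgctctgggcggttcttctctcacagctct
Ly6c2: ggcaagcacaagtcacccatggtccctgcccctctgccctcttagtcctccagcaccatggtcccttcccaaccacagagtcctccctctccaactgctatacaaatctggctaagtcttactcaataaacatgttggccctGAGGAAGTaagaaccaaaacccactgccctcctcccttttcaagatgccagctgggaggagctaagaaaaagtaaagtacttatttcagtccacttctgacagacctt
Ngp: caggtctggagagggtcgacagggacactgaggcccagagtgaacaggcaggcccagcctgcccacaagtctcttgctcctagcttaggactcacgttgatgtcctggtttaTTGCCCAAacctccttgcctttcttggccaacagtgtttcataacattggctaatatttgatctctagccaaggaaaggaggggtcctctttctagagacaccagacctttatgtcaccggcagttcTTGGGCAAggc
Ltf: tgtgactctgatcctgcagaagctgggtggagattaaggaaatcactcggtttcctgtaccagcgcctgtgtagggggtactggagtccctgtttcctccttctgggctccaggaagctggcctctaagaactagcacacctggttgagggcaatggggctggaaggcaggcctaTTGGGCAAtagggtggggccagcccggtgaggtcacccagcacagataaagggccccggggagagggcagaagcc

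PU.1 is the master factor of myeloid cells, and C/EBP factors drive granule genes of granulocytes and monocytes. The match of C1qc began 195 bases and that of Ly6c2 108 bases before the start. In windows of 300 bases, GAGGAAGT was found in 3.69% of all 27025 genes with a window and in 4.23% of the tested genes, from which the called genes come. It was in 4.52% of the genes called higher and in 7.16% of the genes called lower. Among leading genes with a window it was in 1 of 9 increases (C1qc) and in 2 of 11 decreases (Ly6c2 and S100a8). TTNNGCAA, a form set later than the strict palindrome, was found in 12.2% of all, 10.7% of the tested, 11.2% of the higher and 12.8% of the lower genes. It was in 5 of the 11 leading decreases with a window (Fcnb, Lcn2, Ltf, Ngp and S100a9) and in 0 of the 9 leading increases with a window. The strict palindrome TTGCGCAA, which the free form contains, was in 0.207% of all, 0.339% of the tested, 0% of the higher and 0.58% of the lower genes. It was in 0 of the 9 leading increases and 0 of the 11 leading decreases with a window. In the same order of groups, the Maf/Bach element GCTGANTCA was in 1.37%, 1.23%, 1.36% and 2.32%. The interferon element GAAANNGAA was in 9.76%, 9.14%, 10.7% and 11.6%. A match is a description of letters and does not show that a factor binds there.

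The identity genes of red pulp macrophages were higher in the F4/80hi gate with 1 exception. Of 16 genes 15 rose, with a median log2 difference of 4.01 beside 0.12 over all genes. The 15 include Adgre1, a sort antigen, whose direction follows from the gating. Their summed level was 1078 and 522 FPKM in the Ly6chi gate and 13587 and 4467 FPKM in the F4/80hi gate. Spic, the lineage factor, was at 38.0 and 26.0 FPKM against 837 and 329 FPKM (log2 difference 4.02, SE 0.24, adjusted p = 0.000634). The exception, Treml4, a receptor of splenic macrophages and patrolling monocytes, was at 324 and 189 FPKM against 511 and 193 FPKM (adjusted p = 0.645). The count was 14 without the normal Ly6chi library, 15 without any other 1 library and 5 without the state block.

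Receptors of that list followed Spic. Axl, a receptor for dying cells, was at 30.2 and 9.94 FPKM against 557 and 158 FPKM (log2 difference 4.01), Mrc1, the mannose receptor, at 15.5 and 7.54 FPKM against 307 and 75.2 FPKM (3.69), and Cd163, the receptor for hemoglobin bound to haptoglobin, at 7.36 and 2.08 FPKM against 117 and 27.1 FPKM (3.51). For all 3 both F4/80hi values were above both Ly6chi values, which held for 2399 of the 9297 genes. The T-ALL F4/80hi value of all 3 was below the normal one. Among 5 genes of marginal zone and metallophilic macrophages, which lie at the border of the white pulp, Marco (log2 difference 2.65), Siglec1 (2.37) and the oxysterol receptor Nr1h3 (2.82) rose, Cd209d fell (-2.55) and Cd209b was not called. Siglec1 stood at 31.9 and 12.1 FPKM in the F4/80hi gate, well under Cd163 and Mrc1 there. Reads of the Cd209 genes may be shared between near copies, and without the normal F4/80hi library Cd209d was not called (adjusted p = 0.089).

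General macrophage genes were less one-sided. Of 14 pan-macrophage and myeloid genes 6 rose and 3 fell. Csf1r, the receptor of the growth factor M-CSF, was at 673 and 333 FPKM in the Ly6chi gate and at 1488 and 574 FPKM in the F4/80hi gate and was not called (log2 difference 0.96, SE 0.40, adjusted p = 0.174). It was called without either double-low library (adjusted p = 0.0283 and 0.0268). Cd68, a lysosomal glycoprotein, was at 412 and 185 FPKM against 601 and 305 FPKM (adjusted p = 0.174). Itgam, which encodes CD11b, fell from 160 and 105 to 14.6 and 15.4 FPKM (log2 difference -3.03, SE 0.22, adjusted p = 0.00108), and Lyz2, the lysozyme of myeloid cells whose reads may be split with its copy Lyz1, fell from 12010 and 5901 to 670 and 744 FPKM (-3.57, adjusted p = 0.00335). Sirpa, the receptor of the signal CD47 that restrains uptake, rose from 191 and 115 to 555 and 321 FPKM, and Aif1, an actin binding protein, from 111 and 53.5 FPKM to 403 and 272 FPKM.

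Lineage transcription factors moved in both directions, 7 higher and 3 lower of 24. Beside Spic and Nr1h3, Maf, a factor of macrophages, was at 1.86 and 0.41 FPKM against 30.4 and 5.65 FPKM (2.85, adjusted p = 0.0113, and 0.0537 without the normal Ly6chi library), and Rxra, the partner of Nr1h3, at 4.13 and 1.52 FPKM against 24.0 and 10.9 FPKM (2.26, adjusted p = 0.00415). Of the factors 3 fell. Nr4a1 fell from 537 and 237 to 177 and 68.0 FPKM (-1.69, SE 0.21, adjusted p = 0.00584), Klf4, a factor of monocyte fate, from 18.2 and 9.02 FPKM to 5.76 and 2.04 FPKM (-1.61, adjusted p = 0.0231), and Spi1, which encodes PU.1, from 469 and 408 FPKM to 238 and 233 FPKM (-0.89, adjusted p = 0.0425). Leaving out any 1 of the 4 gate libraries took Spi1 past the threshold (adjusted p 0.161 to 0.231), and Klf4 was lost without either Ly6chi library or the T-ALL F4/80hi library (0.0661 to 0.108). Irf8, which specifies monocytes and dendritic cells, was at 226 and 159 FPKM against 287 and 175 FPKM (adjusted p = 0.478).

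Genes of heme breakdown and iron export were higher in the F4/80hi gate. Of 20 genes of iron and heme handling 11 rose, with a median log2 difference of 1.29. Hmox1, heme oxygenase, which opens the heme ring, was at 158 and 89.2 FPKM against 2644 and 634 FPKM (log2 difference 3.44, SE 0.33, adjusted p = 0.00265). Slc40a1, ferroportin, was at 61.6 and 28.4 FPKM against 1597 and 396 FPKM (4.21, SE 0.25, adjusted p = 0.000598). In both genes the normal F4/80hi library was the highest of the 4, the T-ALL one came next, and both Ly6chi values were below them.

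The steps around these enzymes followed. Blvrb and Blvra, the biliverdin reductases that act after heme oxygenase, had log2 differences of 2.99 and 1.89, and Blvrb was at 46.1 and 56.3 FPKM against 347 and 486 FPKM. In the double-low gate Blvrb was at 81.6 FPKM in normal and 201 FPKM in T-ALL mice. The part of erythroid cells in its level was not tested. Trf, transferrin, which carries iron in plasma, rose from 192 and 53.4 to 1633 and 387 FPKM (2.96, SE 0.20, adjusted p = 0.00101), and Ncoa4, the receptor that brings ferritin to the lysosome, from 48.5 and 51.4 FPKM to 143 and 111 FPKM (1.32, adjusted p = 0.00989). The heme transporter of the phagosome, Slc48a1, was at 42.6 and 47.8 FPKM against 216 and 90.1 FPKM (1.61, adjusted p = 0.0413), and ferritin heavy chain Fth1 at 2091 and 1556 FPKM against 4734 and 3984 FPKM (1.27, adjusted p = 0.0391). Fth1 was not called without any 1 of the 4 gate libraries (adjusted p 0.207 to 0.319), Slc48a1 without any 1 library but the T-ALL F4/80hi one (0.0577 to 0.173), and Ncoa4 without the normal F4/80hi library (0.0551). The remaining calls were Cd163 (described above), Abcb6, a porphyrin transporter (0.88), and Cp, ceruloplasmin, a copper oxidase that loads iron onto transferrin (1.00), and the last 2 were lost whichever library was left out.

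Genes of iron uptake by transferrin did not pass. Tfrc, the transferrin receptor, was at 7.43 and 12.8 FPKM against 13.8 and 93.6 FPKM (adjusted p = 0.0505), and Steap3, a ferric reductase, at 3.01 and 2.17 FPKM against 4.13 and 29.4 FPKM (adjusted p = 0.165). For both the high value was the T-ALL F4/80hi library, which also held the highest erythroid sum, and the part of erythroid cells was not tested. The heme sensing repressor Bach1 was at 16.9 and 10.3 FPKM against 5.15 and 6.98 FPKM (adjusted p = 0.059). The count of 11 became 2 without the state block, and 7 without the normal F4/80hi library, without the T-ALL Ly6chi library, without a filter on low values and after quantile normalization.

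**Figure D3:**
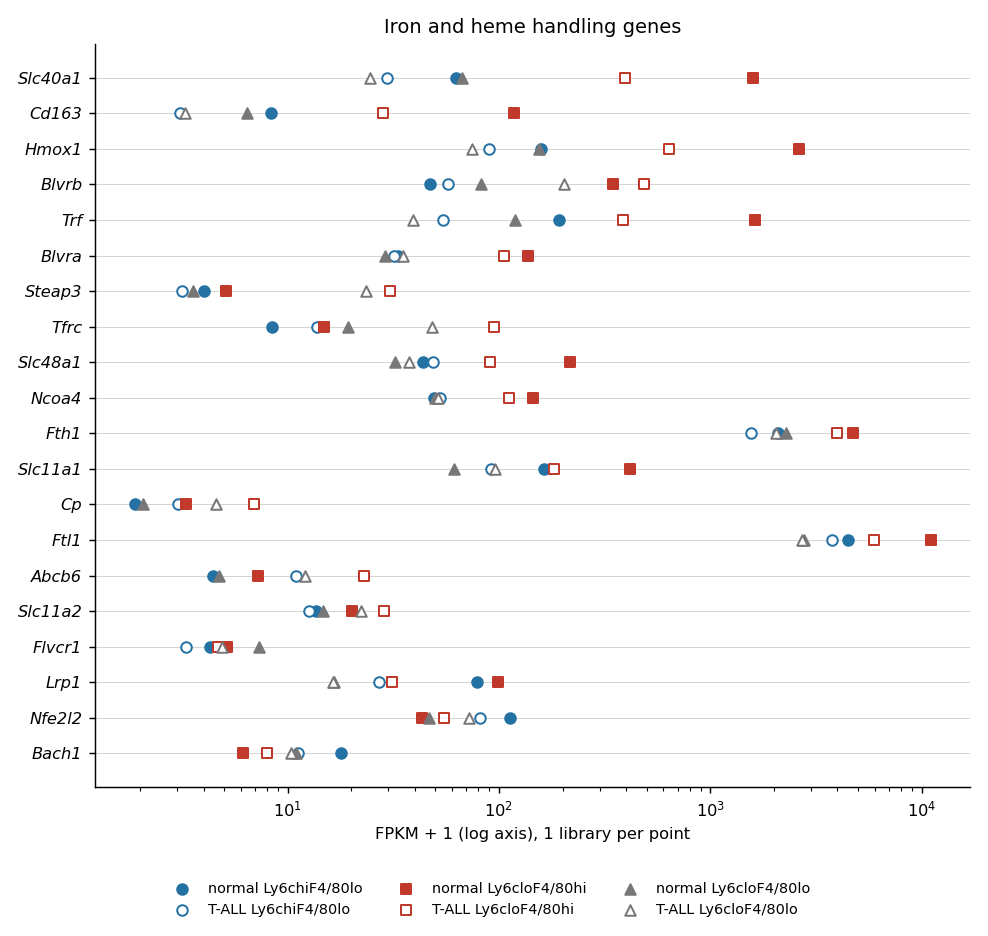
FPKM + 1 on a log axis of 20 genes of iron and heme handling in the 6 libraries, 1 point per library. Hmox1 and Slc40a1 stand at 634 FPKM or less in all libraries but normal F4/80hi, where they reach 2644 and 1597 FPKM, and Tfrc and Steap3 are highest in T-ALL F4/80hi.

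Of 14 complement genes 8 rose and 3 fell, with a median log2 difference of 1.79. Beside the C1q chains and C6, the F4/80hi gate had more Cfp, properdin, which stabilises the alternative pathway convertase (95.1 and 65.9 FPKM against 1351 and 547 FPKM, log2 difference 3.42), more C2 (1.99 and 2.27 FPKM against 47.7 and 34.3 FPKM, 3.73) and more C4b, which has a near copy with which reads may be split (0.2 and 0.74 FPKM against 3.7 and 13.7 FPKM, 2.53, adjusted p = 0.0118, and 0.061 without the T-ALL Ly6chi library). The C1q chains, C2 and C4b make up the start of the classical pathway. Among the genes that fell were C5ar1, the receptor of the anaphylatoxin C5a (27.0 and 28.4 FPKM against 3.18 and 3.55 FPKM, -2.72, adjusted p = 0.00362) and C3 itself (42.9 and 75.5 FPKM against 22.9 and 40.2 FPKM, -0.88, adjusted p = 0.0255). The 3 lower calls became 1 without the normal Ly6chi or the normal F4/80hi library, and C3 was lost without any 1 of the 4 gate libraries (adjusted p 0.0628 to 0.13).

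Among 15 genes for the uptake of dying cells 4 rose and 2 fell, beside 7.10% and 5.68% of all tested genes. Beside Mertk and Axl, Timd4, a receptor for the lipid phosphatidylserine, rose (4.16 and 1.38 FPKM against 39.6 and 22.4 FPKM, log2 difference 3.14, SE 0.20, adjusted p = 0.000749), and so did Gas6, the ligand that links dying cells to Mertk and Axl (0.68 and 0.17 FPKM against 10.7 and 2.68 FPKM, 2.23, adjusted p = 0.017). Gas6 was not called without either Ly6chi library (adjusted p = 0.0793 and 0.0522). Mfge8 and Itgb3, a bridge and the integrin chain of its receptor, were called lower (-0.84 and -1.06), and both calls were lost without any 1 of the 4 gate libraries. The median of the list was 0.06, near that of all genes.

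Of 18 scavenger and lectin receptors 7 rose and 5 fell. Higher in the F4/80hi gate were Clec4n, which encodes the fungal receptor Dectin-2 (41.3 and 29.0 FPKM against 663 and 416 FPKM, log2 difference 3.88, SE 0.21, adjusted p = 0.000535), and Stab2, a receptor for hyaluronan and aged cells (1.47 and 0.64 FPKM against 39.4 and 13.2 FPKM, 3.57). Lower were Clec7a, which encodes the related Dectin-1 (98.8 and 44.5 FPKM against 22.9 and 15.6 FPKM, -1.76, adjusted p = 0.00454), and Clec10a, a lectin for galactose sugars (34.3 and 7.86 FPKM against 1.42 and 0.99 FPKM, -3.01, adjusted p = 0.00748). Cd36, a receptor for oxidised lipids, also fell (73.6 and 47.6 FPKM against 16.9 and 24.5 FPKM, -1.49, adjusted p = 0.0211). The lower count became 3 without the normal F4/80hi library, when Cd36 (adjusted p = 0.0853) and Cd209a (0.168) were lost, and Cd36 was also lost without the normal Ly6chi library (0.0709).

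Of 28 lysosome genes 6 rose, beside 7.10% of all tested genes, and 1 (Cd63) fell, and the median was 0.30. Ctsd, the aspartic protease cathepsin D, rose from 236 and 221 to 1570 and 887 FPKM (log2 difference 2.36, SE 0.29, adjusted p = 0.00574), and Ctsl, cathepsin L, from 18.5 and 19.8 FPKM to 63.7 and 54.0 FPKM (1.57, adjusted p = 0.00448). The others were Ctsb (1.33), Tpp1 (1.27), Lipa (1.15) and Gaa (0.88), and none of these 4 kept its call in every fit that left out a library. Ctss, cathepsin S, was at 1649 and 828 FPKM against 1318 and 740 FPKM, and Lamp1, a membrane protein of lysosomes, at 211 and 209 FPKM against 357 and 328 FPKM. Neither passed. The count of 6 became 2 without the normal Ly6chi, the normal F4/80hi or the T-ALL Ly6chi library.

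Of 18 genes of lipid and cholesterol handling 6 rose and 2 fell. Those that rose include Abca1 and Abcg1, which export cholesterol (log2 differences 1.60 and 1.44), Lpl, lipoprotein lipase (13.3 and 6.69 FPKM against 68.8 and 23.3 FPKM, 1.97, SE 0.25, adjusted p = 0.00628), and Apoc1, an apolipoprotein (7.38 and 3.74 FPKM against 99.7 and 41.1 FPKM, 3.37, SE 0.25, adjusted p = 0.00112). Apoe was at 2183 and 404 FPKM against 4198 and 1647 FPKM and missed the threshold (adjusted p = 0.054). Abcg1 was not called without the normal F4/80hi or the T-ALL Ly6chi library (adjusted p = 0.0652 and 0.0582). Fabp4, a fatty acid carrier, fell with Cd36 (-1.65), and not without the normal F4/80hi library (adjusted p = 0.1).

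Of 10 antibody receptor genes 2 rose and 1 fell, beside 7.10% and 5.68% of all tested genes. Fcgrt, the neonatal receptor that recycles IgG, rose from 75.3 and 26.4 to 355 and 116 FPKM (log2 difference 2.16, SE 0.26, adjusted p = 0.00578), and Fcgr2b, the inhibitory receptor, fell from 181 and 125 to 29.8 and 40.7 FPKM (-2.08, SE 0.26, adjusted p = 0.00633). Fcgr1, the high affinity receptor, was called higher at 19.6 and 6.27 FPKM against 50.4 and 18.0 FPKM, values that overlap (adjusted p = 0.0376), but not without any 1 of the 4 gate libraries (0.0622 to 0.208). The other 7 genes were not called, among them Fcgr3 (adjusted p = 0.165) and Fcgr4 (138 and 245 FPKM against 203 and 372 FPKM).

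Genes of classical monocytes were lower in the F4/80hi gate. Of 18 tested genes 15 fell, with a median log2 difference of -2.58. The 15 include Ly6c2, a sort antigen, whose direction follows from the gating. Ccr2, the receptor for exit from the marrow, was at 167 and 37.4 FPKM in the Ly6chi gate and at 7.88 and 4.73 FPKM in the F4/80hi gate (log2 difference -3.50, SE 0.35, adjusted p = 0.00324). Hp, haptoglobin, was at 167 and 296 FPKM against 4.98 and 13.1 FPKM (-4.61, SE 0.21, adjusted p = 0.000416), and Plac8, a protein of immature myeloid cells, at 1562 and 1328 FPKM against 204 and 336 FPKM (-2.45, adjusted p = 0.00558). F13a1, a coagulation factor chain of monocytes, was at 35.6 and 12.3 FPKM against 0.64 and 1.51 FPKM (-3.44, adjusted p = 0.00993, and 0.0853 without the normal F4/80hi library). Fn1 and Mgst1 were not called. Neutrophils share some of these genes, among them Hp and Chil3, and the part of neutrophil RNA was not tested.

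Genes of patrolling monocytes fell as well, 8 of 13, with a median of -1.65. Ace, angiotensin converting enzyme, was at 301 and 109 FPKM in the Ly6chi gate and at 7.06 and 13.3 FPKM in the F4/80hi gate (log2 difference -4.08, SE 0.53, adjusted p = 0.00797). Cx3cr1, the fractalkine receptor, was at 198 and 87.9 FPKM against 12.1 and 14.5 FPKM (-3.22, adjusted p = 0.00498), and Itgal, the LFA-1 chain, at 265 and 173 FPKM against 25.5 and 45.5 FPKM (-2.62, adjusted p = 0.00776). The double-low gate lay between the other 2 for these 3 genes, at 40.8 to 131 FPKM. Without the normal F4/80hi library, 1 of the 8 calls was left, and adjusted p was 0.093 for Ace, 0.0655 for Cx3cr1 and 0.0585 for Itgal. Ear2, Adgre4, Itgax, Pou2f2 and Treml4 were not called.

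**Figure D4:**
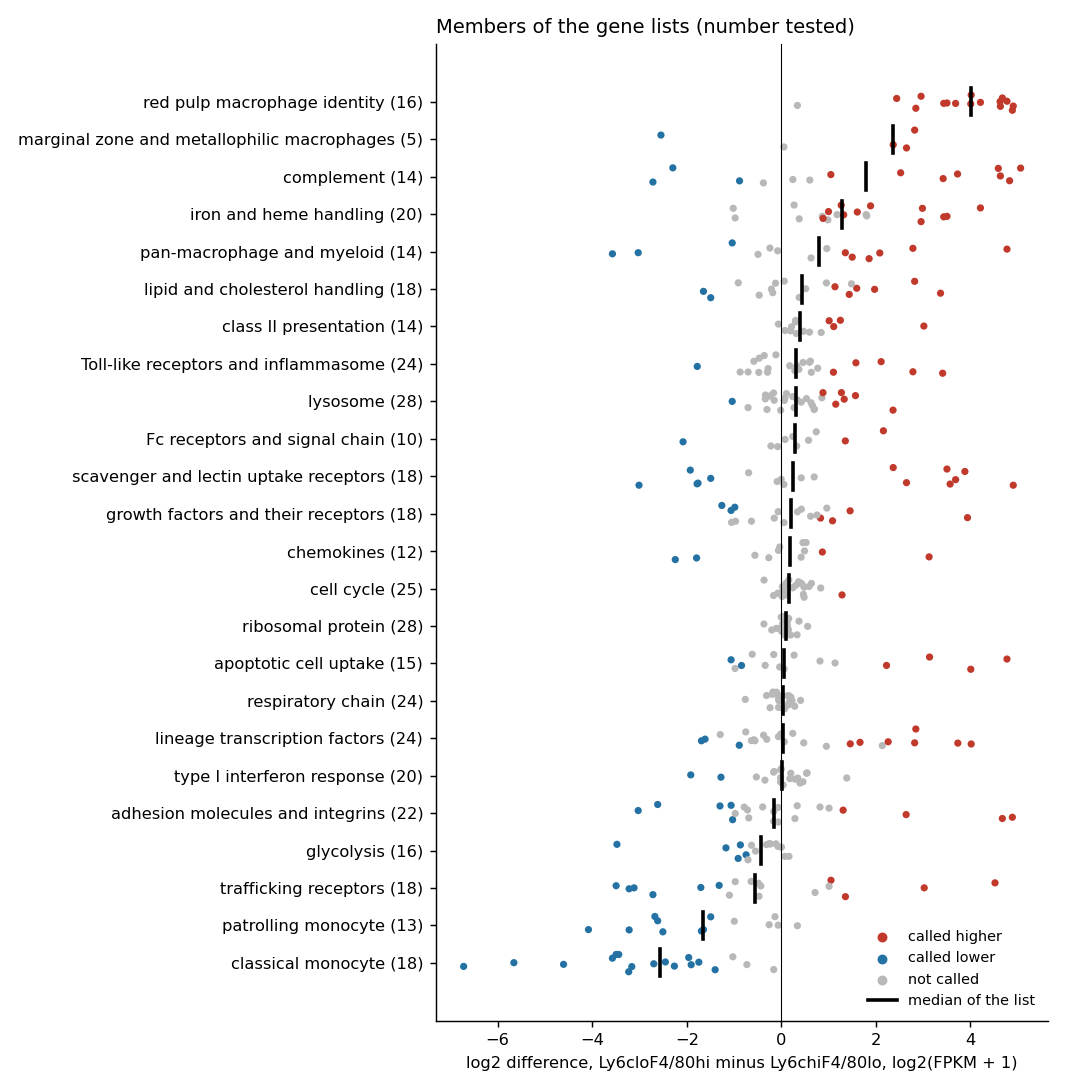
Log2 difference (F4/80hi minus Ly6chi) of each tested member of the identity and programme lists, 1 point per gene and a bar at the median of each list. Lists of other cell types are not included. The medians of red pulp macrophage identity (4.01) and of marginal zone and metallophilic macrophages (2.37) are the highest. Those of classical monocytes (-2.58) and patrolling monocytes (-1.65) are the lowest.

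Of 18 receptors that guide cells to tissues 6 fell and 4 rose, with a median of -0.56. Beside Ccr2, Cx3cr1 and C5ar1 these were S1pr5, which serves egress of monocytes (124 and 50.4 FPKM against 6.08 and 11.1 FPKM, log2 difference -3.12, adjusted p = 0.0174), Cxcr3 (16.4 and 71.4 FPKM against 8.83 and 19.7 FPKM, -1.32, adjusted p = 0.0347) and Ccr9 (-1.70). S1pr5 was not called without the normal F4/80hi or either double-low library (adjusted p 0.0649 to 0.166), nor Cxcr3 without the normal F4/80hi, the T-ALL Ly6chi or the T-ALL F4/80hi library (0.105 to 0.162). Fpr1, a receptor of bacterial formyl peptides, rose with Ccr3, from 10.4 and 26.6 to 211 and 97.2 FPKM (3.02, SE 0.64, adjusted p = 0.0339), and was not called without either Ly6chi or either double-low library (0.0675 to 0.133). Ccr7 and Ccr6 were higher by 1.36 and 1.05, but both had their highest values in the double-low gate (312 and 47.4 FPKM in normal mice), and both were lost without the T-ALL Ly6chi or the T-ALL F4/80hi library (adjusted p 0.0724 to 0.183), Ccr6 also without the normal Ly6chi library (0.141).

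Of 22 adhesion genes 4 rose and 5 fell. With Itgam and Itgal, the integrin chains Itgb7 (171 and 81.4 FPKM against 46.7 and 48.1 FPKM, log2 difference -1.30) and Itga4 (81.2 and 50.6 FPKM against 28.6 and 33.3 FPKM, -1.03) fell, while Itgad and Itga9 (0.67 and 0.61 FPKM against 14.9 and 5.57 FPKM, 2.64, SE 0.33, adjusted p = 0.00622) rose. Itgb2, the chain shared by Itgam, Itgal and Itgad, was at 588 and 408 FPKM against 339 and 262 FPKM (adjusted p = 0.127). Icam1, a ligand of those integrins, rose from 71.5 and 36.4 to 154 and 106 FPKM (1.31, SE 0.19, adjusted p = 0.0105). The count of 5 lower genes became 2 without the normal Ly6chi library, 1 without the normal F4/80hi library and 3 without the normal double-low library.

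Of 12 tested chemokines 2 rose and 2 fell, beside 7.10% and 5.68% of all tested genes. Ccl24, a ligand of Ccr3, was at 0.64 and 0.35 FPKM against 21.6 and 6.47 FPKM (log2 difference 3.13, SE 0.37, adjusted p = 0.00504), so that ligand and receptor were both higher in the F4/80hi gate. Ccl9 and Ccl6, chemokines of myeloid cells, had log2 differences of -2.24 and -1.79 and were not called without the normal F4/80hi library (adjusted p = 0.143 and 0.169), Ccl6 also not without the normal Ly6chi or the T-ALL F4/80hi library (0.142 and 0.158). Cxcl9 was called at 0.87 but in none of the fits that left out a library. Among 18 growth factors and receptors 4 rose and 3 fell. Igf1, insulin-like growth factor 1, was at 1.93 and 0.88 FPKM against 59.3 and 20.5 FPKM (3.94, SE 0.25, adjusted p = 0.000802). The receptor chains for GM-CSF, Csf2ra and Csf2rb, were lower by 1.06 and 0.98 on the log2 scale, and both were lost without the normal F4/80hi, the T-ALL Ly6chi or the T-ALL F4/80hi library (adjusted p from 0.0527 to 0.166).

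Of 24 genes of innate sensing 5 rose and 1 fell, beside 7.10% and 5.68% of all tested genes. Tlr4, the receptor of bacterial lipopolysaccharide, was at 5.09 and 3.53 FPKM against 35.8 and 13.03 FPKM (log2 difference 2.11, SE 0.33, adjusted p = 0.0133), and its cofactor Cd14 at 14.6 and 12.96 FPKM against 174 and 58.2 FPKM (2.78, SE 0.50, adjusted p = 0.0219). Both were lost without the normal Ly6chi library (adjusted p = 0.0627 and 0.0809), and Cd14 also without the T-ALL Ly6chi library (0.0704). Il18, a cytokine released by inflammasomes, rose from 23.9 and 11.2 to 243 and 141 FPKM (3.41, SE 0.17, adjusted p = 0.000511), and Il1rn, the antagonist of interleukin 1, fell from 13.4 and 23.4 to 3.76 and 5.27 FPKM (-1.78, adjusted p = 0.00377). Nlrp3, Casp1, Pycard, Myd88 and Il1b were not called.

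Of 14 genes of class II presentation 4 rose. Cd86, a costimulatory ligand, rose from 23.7 and 12.1 to 225 and 92.7 FPKM (log2 difference 3.02, SE 0.22, adjusted p = 0.00107). Cd74, the invariant chain, was at 15521 and 6288 FPKM against 11137 and 8052 FPKM (adjusted p = 0.934), and H2-Ab1, a class II chain with related copies, at 3635 and 1448 FPKM against 2906 and 2021 FPKM (adjusted p = 0.898). For both the normal pair was lower and the T-ALL pair higher in the F4/80hi gate. The other calls were Cd80, H2-Oa and H2-DMb2, each higher by 1.01 to 1.25, and the count of 4 became 1 without the normal Ly6chi library and 2 without the normal F4/80hi, the T-ALL Ly6chi or the T-ALL F4/80hi library.

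Lists of general cell functions were counted in the same way. By limma 0 of 28 ribosomal protein genes and 0 of 24 respiratory chain genes passed, 0 and 1 of them had an unadjusted p under 0.05, and limma without the trended prior also called 0. Their median log2 differences were 0.09 and 0.03. Of 25 cell cycle genes 1 rose, beside 7.10% of all tested genes. It was Tk1 (10.8 and 43.4 FPKM against 28.8 and 103 FPKM, log2 difference 1.28, adjusted p = 0.0102). Of 20 type I interferon response genes 2 fell, beside 5.68% of all tested genes. They were Zbp1 (108 and 169 FPKM against 26.5 and 46.3 FPKM, -1.92, SE 0.17, adjusted p = 0.00219) and Oasl2 (-1.28, not called in 4 of the 6 fits that left out a library). Proliferation genes were higher in T-ALL than in normal mice in both gates: Mki67 was at 5.99 and 20.5 FPKM in the Ly6chi gate and at 3.51 and 25.5 FPKM in the F4/80hi gate. Among 16 glycolysis genes 5 fell, beside 5.68% of all tested genes. The lactate exporter Slc16a3 was at 79.2 and 59.7 FPKM against 3.82 and 7.14 FPKM (-3.48, SE 0.33, adjusted p = 0.0026), and it was the one of the 5 that stayed called whichever library was left out. The others, Pkm, Pfkp, Gpi1 and Pgam1, were lower by 0.74 to 1.17 on the log2 scale.

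Some lists of other cell types differed between the gates, and others had few calls. Of 15 neutrophil genes 13 fell, with a median log2 difference of -4.13 in the normal pair and -6.08 in the T-ALL pair, and the count became 4 without the normal F4/80hi library. Of 9 genes of granulocyte progenitors 6 fell, and 1, Kit, was called higher (log2 difference 1.08). Among those that fell, Elane, neutrophil elastase, was at 75.7 and 495 FPKM against 3.38 and 9.3 FPKM (log2 difference -4.86, SE 0.37, adjusted p = 0.0012). Mpo, myeloperoxidase, was at 101 and 745 FPKM against 5.22 and 32.6 FPKM (-4.25). Of 8 plasma cell genes 7 fell, among them Jchain, the joining chain of IgM and IgA (4617 and 10138 FPKM against 187 and 876 FPKM, -4.08, SE 0.34, adjusted p = 0.00173). Of 8 genes of plasmacytoid dendritic cells 5 fell, with a median of -0.93, and the list summed to 715 and 757 FPKM against 560 and 567 FPKM. Siglech, a receptor of these cells, fell from 45.2 and 30.3 to 3.14 and 2.19 FPKM (-3.39, SE 0.19, adjusted p = 0.000535). Klk1, another gene of that list, fell from 25.7 and 27.2 FPKM to 1.46 FPKM in T-ALL, while it was listed at 0 in the normal F4/80hi library.

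Erythroid genes were higher in the F4/80hi gate, 15 of 18, with a median log2 difference of 2.32 in the normal and 4.96 in the T-ALL pair. Hba-a1, an α globin whose reads may be split with its copy Hba-a2, was at 461 and 399 FPKM in the Ly6chi gate and at 2438 and 18610 FPKM in the F4/80hi gate (log2 difference 3.97, SE 0.83, adjusted p = 0.0327). Klf1, the erythroid lineage factor, was at 1.51 and 3.86 FPKM against 10.8 and 136 FPKM. The T-ALL F4/80hi library was the highest of the 4 for both, and Klf1 was at 79.9 FPKM in the T-ALL double-low library. The count of 15 became 2 without either double-low library, 1 without the normal and 3 without the T-ALL F4/80hi library. Epor, the erythropoietin receptor, stood apart from the rest with nearly equal levels in normal and T-ALL F4/80hi cells (1.48 and 1.49 FPKM against 39.1 and 45.7 FPKM, 4.12, adjusted p = 0.0144, and 0.15 without the normal F4/80hi library and 0.0585 without the T-ALL Ly6chi library).

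Of 14 B cell genes 3 rose (1 or 5 with 1 library left out), and the list summed to 1705 and 1443 FPKM in the Ly6chi gate, 2255 and 2278 FPKM in the F4/80hi gate and 4105 and 2797 FPKM in the double-low gate. Cd79a, a chain of the B cell receptor, was at 545 and 450 FPKM against 614 and 642 FPKM. Of 15 T cell genes 1 fell (Cd28), a share near the 5.68% of all tested genes, and the count became 6 without the T-ALL F4/80hi library and 0 without the normal F4/80hi or the T-ALL Ly6chi library, and Cd3e, a chain of the T cell receptor complex, was at 12.6 and 8.36 FPKM against 2.22 and 10.8 FPKM. Of 9 natural killer cell genes 4 fell, and this became 0 without the normal F4/80hi, 1 without the normal Ly6chi, 2 without either double-low and 7 without the T-ALL Ly6chi library. Of 10 megakaryocyte and platelet genes 1 rose, beside 7.10% of all tested genes. It was Clec1b, a platelet receptor (3.75 and 3.28 FPKM against 90.0 and 45.2 FPKM, log2 difference 3.85, SE 0.24, adjusted p = 0.000753). Pf4, a platelet granule chemokine, was at 6.19 and 8.44 FPKM against 5.83 and 23.5 FPKM. Cd79a and Cd3e were above 0 in all 4 libraries, and the part of lymphocytes in the differences was not tested.

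**Figure D5:**
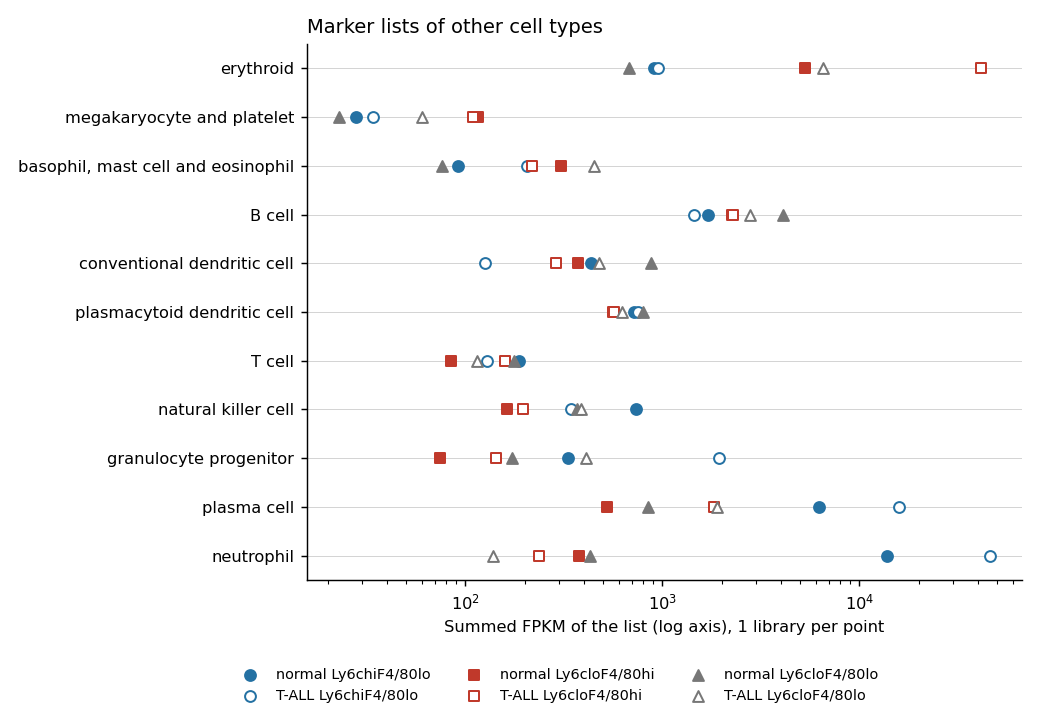
Summed FPKM of 11 lists of other cell types in each of the 6 libraries, on a log axis. Neutrophil genes are highest in the Ly6chi gate (13758 and 45990 FPKM) and erythroid genes in the T-ALL F4/80hi library (41482 FPKM).

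The 2 pairs were compared by the size of their gaps. Among the 825 genes called higher, 557 had the larger log2 difference in the normal pair, and among the 660 called lower, 304 had the larger fall in the T-ALL pair. For red pulp identity genes the median was 4.32 in the normal and 3.68 in the T-ALL pair, and 2 of 16 genes had the larger difference in T-ALL. With 1 pair per state the difference between the pairs was not tested. The F4/80hi sum of the red pulp list was 2.75% of all FPKM in normal and 0.777% in T-ALL mice. The erythroid share of the same libraries was 1.07% and 7.21%, and its part in the lower red pulp share was not tested.

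The double-low gate lay nearer to the Ly6chi gate for genes called higher and nearer to the F4/80hi gate for genes called lower. On the log2 scale it stood at a median of 30.1% of the way from the Ly6chi to the F4/80hi gate for the former, where 523 of 825 genes were nearer the Ly6chi gate, and at 62.0% of the way for the latter, where 239 of 660 were. These positions come from libraries that also entered the fit and are given as a description. Red pulp genes summed to 842 and 480 FPKM in the double-low gate, below the Ly6chi sum in each state, and Hmox1 was at 153 and 73.7 FPKM there. Neutrophil genes summed to 432 and 139 FPKM there.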

How the data were processed

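RNA of sorted spleen fractions was isolated with an RNeasy kit and sequenced on an Illumina machine, per the labels' protocols. The submitters' processing notes name Bowtie2 2.2.5 and RSEM, and the authors deposited FPKM per Entrez gene. Build, annotation and the RSEM version were not given in the sources used here. A gene missing from a library was taken as 0. Symbols of 16017 of 16058 genes came from a RefSeq table of GRCm38.p6, used for names only. Some genes are not reported here.

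The deposited FPKM were turned into log2(FPKM + 1). Genes that reached 1 FPKM in 2 or more of the 6 libraries entered limma 3.58.1 (R 4.3.3, statmod 1.5.0), two-sided, with gate and state as additive terms, a trended and robust prior and Benjamini-Hochberg adjustment. The fit has 2 residual degrees of freedom (median total 6.23). Python 3.11.15 (numpy 2.4.6, pandas 2.3.3) served for summaries and depth, and matplotlib 3.10.9 for figures. Depth rests on 202 to 252 genes with a single transcript per library. In 5 simulated runs of this comparison, with 200 of 11616 genes altered, 75.8%, 98.4% and 99.5% of genes changed by 1, 2 and 3 on the log2 scale were recovered, and 13.7%, 7.58% and 8.65% of the calls were false. Only genes with a mean log2(FPKM + 1) above 3 were altered, so recovery at lower levels was not simulated. The simulated noise was independent between libraries, and the state had the same effect in every gate.

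The members and the 36 gene lists, which overlap, were chosen with earlier results of these data known. Named genes were the sort antigens and identity genes, the 12 highest and 12 lowest called genes, up to 4 members of each list by size of difference, genes whose pairs went opposite ways by 2-fold or more with at least 10 FPKM, and members of the identity and programme lists. Alternatives were a pseudocount of 0.1, other filters on low values, median-ratio and quantile scaling, no prior trend, a 2-fold limit, no state term, a fit without the double-low libraries (4 libraries), and each library left out in turn, where a lone library was taken to vary like the others. Motifs were searched in RefSeq windows from 250 bases before to 50 bases after a start, and the motif forms with free bases were set later.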

Additional observations from a re-analysis of the deposited data

Results flagged for a closer look

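For 7 genes that reached 10 FPKM in 1 of the 4 libraries the normal pair and the T-ALL pair went opposite ways by 2-fold or more. With 1 pair per state none of these differences between the states was tested. Each value is the T-ALL log2 difference minus the normal one, where a log2 difference is F4/80hi minus Ly6chi.

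In 3 genes the F4/80hi gate was higher in normal and lower in T-ALL mice. Slpi, an inhibitor of leukocyte proteases, was at 157 FPKM in normal and 3449 FPKM in T-ALL Ly6chi cells and at 1109 and 911 FPKM in F4/80hi cells (-4.73). Ada, adenosine deaminase, was at 10.4 and 69.7 FPKM against 25.1 and 23.8 FPKM (-2.70), and Enpp1, an ectoenzyme that hydrolyses nucleotides, at 4.82 and 20 FPKM against 10.7 and 8.21 FPKM (-2.20). In all 3 the T-ALL Ly6chi library was the highest of the 4 and the normal Ly6chi library the lowest.

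In 4 genes the order was the other way. Cited4, a transcriptional coactivator, was at 6.41 and 4.61 FPKM against 1.59 and 24.3 FPKM (3.69), and Hk1, a hexokinase, at 22.7 and 17.5 FPKM against 9.68 and 40.1 FPKM (2.30). Wfdc17, a small secreted protein of macrophages, was at 168 and 103 FPKM against 76.9 and 245 FPKM (2.37). Dntt, the terminal transferase of lymphocyte precursors, was at 4.43 and 7.31 FPKM against 0.38 and 16.5 FPKM (3.05). The T-ALL F4/80hi library was the highest of the 4 in all 4 genes.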

How the results depend on the processing

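The count of genes called higher was 825 and became 463 without a filter on low values, 549 after quantile normalization and 100 without the state block. The count called lower was 660 and became 404 without a filter and 97 without the state block. With a library left out the counts ran from 406 to 684 higher and from 211 to 593 lower, the fewest lower without the normal F4/80hi library. Of the reported calls 339 higher and 201 lower genes were called again without that library. No gene was called in the opposite direction in any of the 15 alternatives of the fit. The reported fit is itself paired by state, since the state block sets the gates of a state side by side; the labels give no replicate numbers for another pairing. In the pairs a minimum of 20 FPKM gave 452 higher and 428 lower genes in normal mice, 496 higher in T-ALL and 304 higher in both. A 4-fold limit gave 328 and 214 in normal mice, 306 and 167 in T-ALL, and 165 and 108 in both. For the genes followed, 2766 of 3392 results of a gene under an alternative kept direction and side of the threshold, 590 lost the call, 16 gained it and 20 changed sign. The changes of sign were in genes without a call: Hk1 (-0.013 at a pseudocount of 0.1, -0.078 after median-ratio rescaling, -0.12 after quantile normalization) and Wfdc17 (-0.017 after median-ratio rescaling), and, with a library left out, Ada (-1.24 to 0.91), Cd3e (-2.11 to 0.37), Cited4 (-1.11 to 1.76), Dntt (-1.80 to 0.90), Enpp1 (-0.94 to 0.76), Hk1 (-0.94 to 0.94), Pf4 (-0.19 to 1.49), Slpi (-1.52 to 2.41) and Wfdc17 (-0.83 to 0.96). The causes of these shifts were not tested. Depth limits genes near 1 FPKM, and the single library per gate and state limits every p-value.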
